A study of Mus musculus with 72 samples.

Results

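The hippocampus of trained mice was compared between the dark phase and early light, in 18 of the 72 arrays of the series. The comparison takes the 9 mice dissected 12 h after contextual fear conditioning (FC12) against the 9 dissected 24 h after it (FC24). The members were chosen by the titles of the arrays alone, 1 array for each mouse. All were male C57BL/6J mice, 2 months old and housed singly with 12 h of light and 12 h of dark, lights on at 7 am, which is Zeitgeber time 0 (ZT0). Each had been handled on 3 days and had received a single foot shock of 2 s at 1.5 mA in a chamber at 10 am (ZT3), so that the animal links the chamber with the shock. FC12 mice were therefore taken at ZT15, in the dark when mice are active, and FC24 mice at ZT3, early in the light when they rest. The time of day and the hours since training differ together between these groups and cannot be told apart within them. Handled, untrained mice taken at the same times of day, 9 at ZT15 (CC12) and 9 for the early light (CC30), served as a second set of animals. Values are log2 array signals from which the first principal component over all arrays (PC1) was subtracted. A probe set, the group of probes that reports a transcript, was called where its p from limma, adjusted over all probe sets by the Benjamini-Hochberg procedure, was under 0.1.

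The circadian clock of mammals is a loop in which ARNTL (BMAL1) and CLOCK switch on the Per, Cry, Nr1d and Ciart genes, whose proteins then hold ARNTL and CLOCK back or repress Arntl itself. Clocks of this kind run in most tissues, the hippocampus included, under the lead of a pacemaker in the hypothalamus. Corticosterone, the glucocorticoid of rodents, rises towards the onset of activity and carries time of day to many tissues. Feeding, body temperature and sleep follow the same cycle.

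Dark and early light differed in trained mice for 1136 of 35556 probe sets (3.19%), with 752 higher (2.11%) and 384 lower (1.08%) in FC12. At an adjusted p under 0.01, 164 were higher (0.461%) and 48 lower (0.135%). Counted as genes, with the brightest probe set of each gene that has a probe set of its own, 583 of 18820 were higher (3.1%) and 289 lower (1.54%). The differences were small, with a median fold of 1.125 among called probe sets and a largest of 1.95. All FC12 mice lay above all FC24 mice for 97 genes (0.515%), and all lay below for 34 (0.181%). The number of arrays limits the precision, and log2 differences had a standard error of 0.0487 at the median. Before PC1 was subtracted, replicates correlated at 0.983 to 0.996 within FC12 and at 0.994 to 0.996 within FC24. FC12 replicate 2 stood apart on PC1, with a score of -61.1 where the other FC12 mice had -5.4 to 8.2. Without this mouse and FC24 replicate 4, the lowest FC24 mouse on PC1 at -2.8, 1102 probe sets were called, 923 of them among the 1136. FC12 replicate 4, at -5.4, was lower than any FC24 mouse and was kept.

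The largest rises in the dark included those of Fmo2, Plin4 and Mfsd2a. Fmo2, a flavin monooxygenase that oxidises foreign compounds, lay at 4.31 to 5.35 in the FC12 mice with a median of 4.73 on the log2 scale. In FC24 mice it lay at 3.63 to 3.99 with a median of 3.83. No FC24 mouse reached the lowest FC12 mouse, and the log2 fold change was 0.96 (SE 0.10, adjusted p = 6.01e-05). Plin4, a coat protein of lipid droplets, ran from 5.63 to 6.25 in FC12 (median 5.99) and from 4.89 to 5.30 in FC24 (median 5.04), again without overlap. It was 0.88 higher in FC12 (SE 0.08, adjusted p = 1.22e-05). Mfsd2a, the carrier that brings lysolipids with omega-3 fatty acids through the vessel wall into the brain, had the smallest adjusted p of all probe sets. Its values were 9.33 to 9.48 in FC12 (median 9.42) and 8.76 to 8.91 in FC24 (median 8.84), so that the spread within each group was far below the gap. The log2 fold change was 0.57 (SE 0.03, adjusted p = 1.88e-09).

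The other large rises included genes known from glia and a GABA receptor subunit. Etnppl, an enzyme of astrocytes that breaks down phosphoethanolamine, lay at 6.94 to 7.43 in FC12 (median 7.09) and 6.14 to 6.86 in FC24 (median 6.48). It rose by 0.65 (SE 0.09, adjusted p = 5.14e-04). Cdh19, a cadherin of glial cells, lay at 6.39 to 6.86 in FC12 (median 6.62) and 5.63 to 6.12 in FC24 (median 6.06), a log2 fold change of 0.61 (adjusted p = 2.06e-04). Neither gene had overlapping groups. Hif3a, of the hypoxia-inducible factors, was at 5.67 to 6.10 in FC12 (median 5.89) and at 5.24 to 5.43 in FC24 (median 5.31), a rise of 0.56 (adjusted p = 2.77e-05). Tm6sf2, known for lipid export from the liver, rose by 0.54, Gabrr2, a GABA receptor subunit, by 0.53, and Pdzd2, a PDZ domain protein, by 0.52, all without overlap between groups. Xdh, the enzyme that makes uric acid, rose by 0.51 and the death receptor Tnfrsf25 by 0.48, with groups overlapping at their edges. Dsp (desmoplakin), Fam83d and Dnase1l2 closed the set of 15 with rises of 0.47, 0.47 and 0.44, and in each of these 3 the groups did not overlap. Snord14e, the third largest rise, is described with the small RNAs. Tm6sf2, Tnfrsf25 and Dnase1l2 were also raised in early light soon after training or a memory test, as given below.

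**Figure D1:**
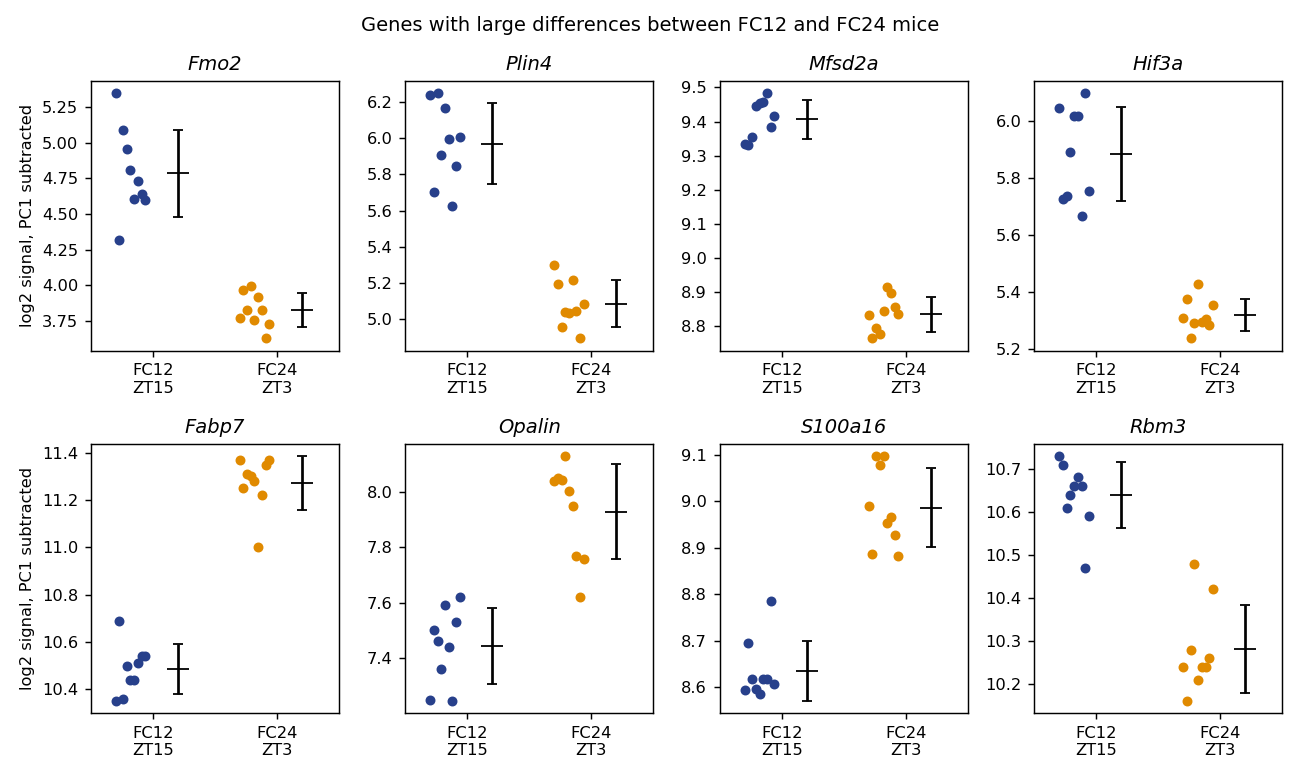
Log2 signal after subtraction of PC1 for 8 genes, 1 point for each of the 9 FC12 mice (blue, ZT15) and 9 FC24 mice (orange, ZT3), with mean ± SD as the bar beside the points. Fmo2, Plin4, Mfsd2a and Hif3a lie higher and Fabp7, Opalin and S100a16 lower in every FC12 mouse than in any FC24 mouse, and Rbm3 groups overlap.

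The largest fall was that of Fabp7, the brain fatty acid binding protein, made by astrocytes and by neural progenitors. It lay at 10.35 to 10.69 in FC12 mice with a median of 10.50 and at 11.00 to 11.37 in FC24 mice with a median of 11.30. All FC12 mice were below all FC24 mice, and the level fell by 0.79 on the log2 scale (SE 0.05, adjusted p = 6.77e-08), a fold of 1.73. Opalin, a membrane protein of myelinating oligodendrocytes, had values of 7.25 to 7.62 in FC12 (median 7.46) and 7.62 to 8.13 in FC24 (median 8.002). The highest FC12 mouse lay just under the lowest FC24 mouse, and Opalin fell by 0.48 (SE 0.07, adjusted p = 8.77e-04). S100a16, a calcium-binding protein, had 8.59 to 8.78 in FC12 (median 8.62) and 8.88 to 9.10 in FC24 (median 8.97), and fell by 0.35 (adjusted p = 4.96e-05). Cstad fell by 0.45, the linker histone H1f2 by 0.41, Mmp14, a protease anchored in the cell membrane, by 0.35 and Ccdc190 by 0.29. In these 4 genes too the groups did not overlap. Adcy8, the calcium-stimulated adenylyl cyclase, fell by 0.38 (adjusted p = 0.00803), Bche (butyrylcholinesterase) by 0.30 and Kcnj2, an inward rectifier potassium channel, by 0.30. For these 3 the groups overlapped while 9 of 9 FC12 mice lay below the FC24 mean. Zfp941, Lipo3 and Tmem44 fell by 0.31, 0.31 and 0.29. The call of Lipo3 (adjusted p = 0.0689) ended when any of 8 mice was left out, with an adjusted p of up to 0.129.

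Most repressors of the clock were higher in the dark and its activator Arntl was lower. Of 20 core clock genes listed, 17 could be measured by a probe set of their own. Among them 8 were higher and 2 lower, or 58.8% called against 4.63% of all genes, with a median log2 fold change of 0.05 against 0.002 for all genes. Per2 ran from 7.48 to 7.78 in FC12 mice (median 7.72) and from 7.28 to 7.49 in FC24 mice (median 7.44). A single FC12 mouse, replicate 2, lay within the FC24 range, and Per2 was 0.26 higher (SE 0.04, adjusted p = 0.00126). Per3 lay at 8.15 to 8.32 in FC12 (median 8.23) and 7.80 to 8.06 in FC24 (median 7.97), without overlap, and rose by 0.28 (SE 0.03, adjusted p = 1.39e-04). Per1 had 8.41 to 8.73 in FC12 (median 8.56) and 8.30 to 8.44 in FC24 (median 8.40), overlapping in its lowest FC12 mouse, and rose by 0.18 (SE 0.04, adjusted p = 0.0155). It was also high in early light soon after training or a memory test, as given below.

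Ciart, which represses ARNTL and CLOCK, showed the largest change of the list. Its values were 7.92 to 8.41 in FC12 (median 8.20) and 7.47 to 7.97 in FC24 (median 7.80), overlapping slightly, and Ciart rose by 0.44 (SE 0.07, adjusted p = 0.00292). Bhlhe41 (DEC2), a repressor that binds the same sites as ARNTL and CLOCK, was at 7.80 to 7.98 in FC12 (median 7.89) and at 7.39 to 7.75 in FC24 (median 7.58). The groups did not overlap and the difference was 0.32 (SE 0.04, adjusted p = 3.50e-04). Cry1, the partner of the PER proteins, rose by 0.24 (adjusted p = 0.00902). Nr1d2 (REV-ERB beta), which represses Arntl, rose by 0.20 (8.75 to 8.95 against 8.52 to 8.75, adjusted p = 0.00479). Its groups touched, with a gap of 0.0001 between them. Bhlhe40 (DEC1) rose by 0.16 (adjusted p = 0.0555), and its call ended without any of 4 mice, with an adjusted p of up to 0.106.

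Arntl lay at 7.20 to 7.42 in FC12 (median 7.30) and at 7.41 to 7.77 in FC24 (median 7.58), with the groups overlapping at their edges. It fell by 0.29 (SE 0.05, adjusted p = 0.00211). Rorb, a nuclear receptor of the ROR family and also a marker of cortical layers, fell by 0.18 (adjusted p = 0.0119). The partners of Arntl were not called: Clock had a log2 fold change of -0.03 (adjusted p = 0.773) and Npas2 one of -0.12 (adjusted p = 0.262). Cry2 had -0.02, Rora -0.04, Csnk1e -0.07 and Fbxl21 -0.11, and none of these passed. The kinase gene Csnk1d had a difference of 0.05 that missed the threshold (adjusted p = 0.224). Its groups touched, with a gap of 0.0002 between the lowest FC12 and the highest FC24 mouse. Of the PAR bZIP factors and their antagonist, which read out the clock, Tef rose by 0.11 (adjusted p = 0.0471). Hlf had 0.06 (adjusted p = 0.388) and Nfil3 -0.06 (adjusted p = 0.828). Nr1d1 and Dbp share their probe sets with neighbouring genes and are not given.

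**Figure D2:**
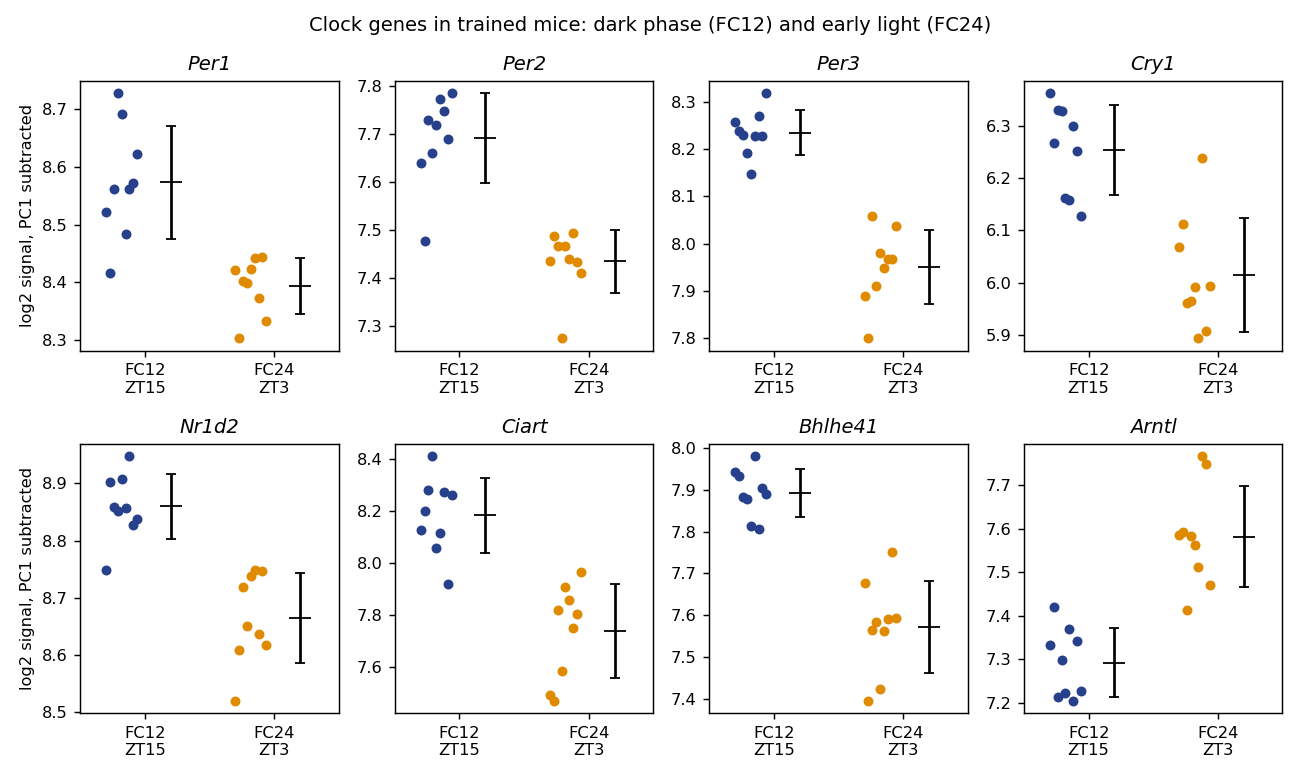
Log2 signal after subtraction of PC1 for 8 clock genes, 1 point for each mouse of FC12 (blue, ZT15) and FC24 (orange, ZT3), with mean ± SD as the bar beside the points (9 mice in each group). Per3 and Bhlhe41 do not overlap, Nr1d2 groups touch (gap of 0.0001), the other 5 overlap, and Arntl is the 1 of the 8 that is lower in FC12.

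Promoter windows of the clock genes are shown because members that moved together can be read for the sequences clock factors bind. Windows ran from 250 bases before to 50 bases after the transcription start (RefSeq, GRCm38.p6), and 17 of the 20 core clock and PAR bZIP genes measured had one. They were searched on both strands for the E-box CACGTG bound by ARNTL and CLOCK, the D-box (TTATGTAA or TTACGTAA) of PAR bZIP factors, the core AGGTCA of the ROR element and the cAMP response element TGACGTCA. None of these motifs holds another. An E-box lay in 5 of the 17 genes (29.4%), namely Ciart, Bhlhe41, Cry1, Per1 and Tef, all of which were higher in FC12. A D-box lay in 1, Per3, and in 2 copies. The ROR core lay in as many genes as the E-box (29.4%), namely Per1 and Nr1d2, which were higher, Arntl, which was lower, and Clock and Nfil3, which were not called. The cAMP response element lay in 1, Hlf, which was not called. Capitals mark the motifs in the following stretches upstream of the start, written 5′ to 3′ on the strand of the gene: Ciart, with 3 E-boxes (chr3:95882247-95882364, minus strand), Bhlhe41 (chr6:145865548-145865593, minus), Cry1 (chr10:85185089-85185134, minus), Per1 with an E-box followed by the reverse complement of the ROR core (chr11:69098763-69098837, plus), Tef (chr15:81802526-81802571, plus) and Per3 (chr4:151044796-151044890, minus).
Ciart: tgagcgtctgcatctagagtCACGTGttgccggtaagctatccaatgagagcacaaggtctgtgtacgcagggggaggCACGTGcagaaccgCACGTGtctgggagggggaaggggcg
Bhlhe41: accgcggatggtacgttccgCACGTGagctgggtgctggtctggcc
Cry1: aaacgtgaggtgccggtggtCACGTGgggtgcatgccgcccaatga
Per1: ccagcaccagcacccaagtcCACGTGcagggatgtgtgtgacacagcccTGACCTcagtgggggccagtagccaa
Tef: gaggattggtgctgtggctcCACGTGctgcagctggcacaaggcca
Per3: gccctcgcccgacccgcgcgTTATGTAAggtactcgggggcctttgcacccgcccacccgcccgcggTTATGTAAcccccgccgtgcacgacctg

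Over all 27025 genes with a window, 8.09% held an E-box, 1.23% a D-box, 18.1% the ROR core and 2.03% the cAMP response element. Of the genes measured, 14749 had a window, among them 470 higher and 244 lower in FC12, and the shares that follow are of these. The E-box was present in 12.3% of the higher genes, 11.1% of the lower and 9.57% of all measured. For the D-box these shares were 1.49%, 1.23% and 1.11%, and for the ROR core 14.7%, 17.6% and 16.4%. The cAMP response element was found in 3.83%, 2.46% and 2.77%. These shares describe letters in the windows and no test was run on them.

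Many genes that respond to glucocorticoids were higher in the dark. Of 23 measured, 12 were called, all higher (52.2% against 3.1% of all genes), with a median log2 fold change of 0.13. Besides Plin4, Mfsd2a and Hif3a, the leading member was Tsc22d3 (GILZ), a mediator of the anti-inflammatory action of the hormone. It lay at 7.06 to 7.39 in FC12 (median 7.19) and 6.51 to 7.02 in FC24 (median 6.83), without overlap, and rose by 0.39 (SE 0.06, adjusted p = 0.00298). The rest of the 12, outside the naming rule and given to complete the count, were Sult1a1 (0.31), Fkbp5, the co-chaperone that dampens the glucocorticoid receptor (0.30, no overlap), Nfkbia (0.23), Gjb6 (0.20), Errfi1 (0.18), Bcl6 (0.16), Klf9 (0.14) and Fam107a (0.11). Sgk1, a kinase often used as a readout of the hormone, had 0.12 (adjusted p = 0.203), and Pdk4 had -0.14 (adjusted p = 0.205). The mean over the list in each mouse ran from 7.727 to 7.833 in FC12 and from 7.561 to 7.660 in FC24, so that the groups did not overlap. Hormone levels were not measured here.

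Endoplasmic reticulum chaperones, the folding helpers of secreted and membrane proteins, were partly higher in FC12. Of 19 measured, 6 were called and all 6 were higher (31.6% against 3.1% of all genes), with a list median of 0.07. Dnajc3, a co-chaperone of BiP, lay at 8.03 to 8.17 in FC12 (median 8.09) and 7.82 to 8.01 in FC24 (median 7.87). Its groups did not overlap and it rose by 0.21 (SE 0.03, adjusted p = 5.14e-04). Sdf2l1 rose by 0.27 (adjusted p = 0.0243) and Creld2 by 0.20 (adjusted p = 0.0489). Hspa5 (BiP), the main chaperone of this compartment, rose by 0.17 (adjusted p = 0.0778), a call that ended without any of 12 mice (adjusted p up to 0.137). The remaining 2 called were Herpud1 and Atf4, with 0.16 and 0.13. The lectin chaperones Calr and Canx had -0.02 and -0.03 and did not pass.

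Of 13 heat shock genes of the cytosol measured, 1 was called (7.69% against 4.63% of all genes). Dnajb1 (HSP40), a partner of HSP70, lay at 7.60 to 7.83 in FC12 and 7.30 to 7.58 in FC24, without overlap, and rose by 0.21 (SE 0.04, adjusted p = 0.0111). Rbm3, an RNA-binding protein induced by mild cooling, lay at 10.47 to 10.73 in FC12 (median 10.66) and 10.16 to 10.48 in FC24 (median 10.24). The groups touched at 1 mouse each and Rbm3 was 0.36 higher in FC12 (SE 0.04, adjusted p = 1.94e-04). Its relative Cirbp had a difference of -0.07 (adjusted p = 0.689).

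Cholesterol synthesis genes that were called were lower in the dark. Of 18 measured, 0 were higher and 3 were lower (1.54% of all genes were lower), and the list median was -0.08. Insig1, the sterol sensor that holds back SREBP, lay at 8.67 to 9.08 in FC12 (median 8.90) and 8.93 to 9.52 in FC24 (median 9.20), with wide overlap. It fell by 0.28 (SE 0.07, adjusted p = 0.0409). Msmo1, a sterol demethylating enzyme, fell by 0.18 (adjusted p = 0.0296), and Idi1, of the isoprenoid steps, by 0.14 (adjusted p = 0.0894, ended without any of 12 mice). Besides Plin4 and Fabp7, 0 of the other genes of fatty acid binding and lipid handling were called, 17 having been measured in all. That was 11.8% called against 4.63% of all genes, with a list median of -0.02. Among 20 genes of glucose and monocarboxylate metabolism, Pfkfb3, which speeds up glycolysis, rose by 0.24 (adjusted p = 0.00697). Slc2a1 (GLUT1), the glucose carrier of the vessel wall, lay at 10.51 to 10.79 in FC12 and 10.24 to 10.54 in FC24 and rose by 0.22 (adjusted p = 0.00902). Ppp1r3c, a glycogen targeting subunit, fell by 0.19 (adjusted p = 0.0596), and its call ended without any of 7 mice (adjusted p up to 0.114).

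Among immediate early genes, which neuronal activity regulates, the share called was near that of all genes. Of 24 immediate early genes, 0 were higher and 1 was lower (4.17% called against 4.63% of all genes). That gene, Ptgs2 (cyclooxygenase 2), lay at 8.58 to 8.90 in FC12 and 8.79 to 9.02 in FC24 and fell by 0.18 (adjusted p = 0.0393). Arc, a protein of active synapses, had a log2 fold change of 0.38 with a large standard error of 0.11 and missed the threshold (adjusted p = 0.102). Fos had 0.22 (adjusted p = 0.395) and Egr1 -0.13 (adjusted p = 0.324). Bdnf, a growth factor of neurons, had -0.12 (adjusted p = 0.156), and 0 of 5 neurotrophin and receptor genes were called. Among 24 glutamate receptor and CaMKII genes 0 were higher and 2 lower (8.33% called, where 1.54% of all genes were lower). Grm3, a metabotropic receptor of glia and neurons, fell by 0.13 (adjusted p = 0.0346) and the NMDA receptor subunit Grin3a by 0.17 (adjusted p = 0.0613, ended without any of 10 mice). Of 14 genes of GABA signalling 1 was called (7.14%), with a list median of -0.02. That gene, Gabra2, fell by 0.15 without overlap (9.45 to 9.60 against 9.64 to 9.81, adjusted p = 0.00691). Gabrr2, which rose, is not in this list. Of 18 neuropeptide genes 1 was called (5.56%). It was Sstr2, a somatostatin receptor, which rose by 0.15 (adjusted p = 0.0787, ended without any of 12 mice).

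Genes of oxidative phosphorylation, ribosomal proteins and the proteasome held no call, while lists of splicing factors and chromatin modifiers did. Of 23 genes of oxidative phosphorylation, 25 of cytosolic ribosomal proteins and 26 of the proteasome, 0 were called in limma, and the smallest adjusted p were 0.131 for Ndufb5, 0.229 for Rpl14 and 0.1005 for Psmb3. Of 29 splicing factors 3 were higher and 1 lower (13.8% called against 4.63% of all genes). Srsf2 rose by 0.13 (adjusted p = 0.0189), Clk1, a kinase of splicing factors, by 0.21 (adjusted p = 0.0510) and Srsf10 by 0.10 (adjusted p = 0.0607), while Srsf5 fell by 0.16 (adjusted p = 0.0553). The calls of Srsf10 and Srsf5 ended without any of 8 and any of 3 mice. Of 38 chromatin modifiers 3 were higher and 1 lower (10.5% called). Ep300 (p300), a histone acetyltransferase that also serves the clock, lay at 9.72 to 9.86 in FC12 and 9.62 to 9.71 in FC24, without overlap, and rose by 0.12 (SE 0.02, adjusted p = 0.0102). Hdac9, a class II deacetylase, fell by 0.18 (adjusted p = 0.00624), with groups that touched (gap of 0.0001). The methyltransferase Setdb1 rose by 0.11 (adjusted p = 0.0573) and the demethylase Kdm5c by 0.08 (adjusted p = 0.0665), and leaving out any of 6 and any of 8 mice ended these calls.

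**Figure D3:**
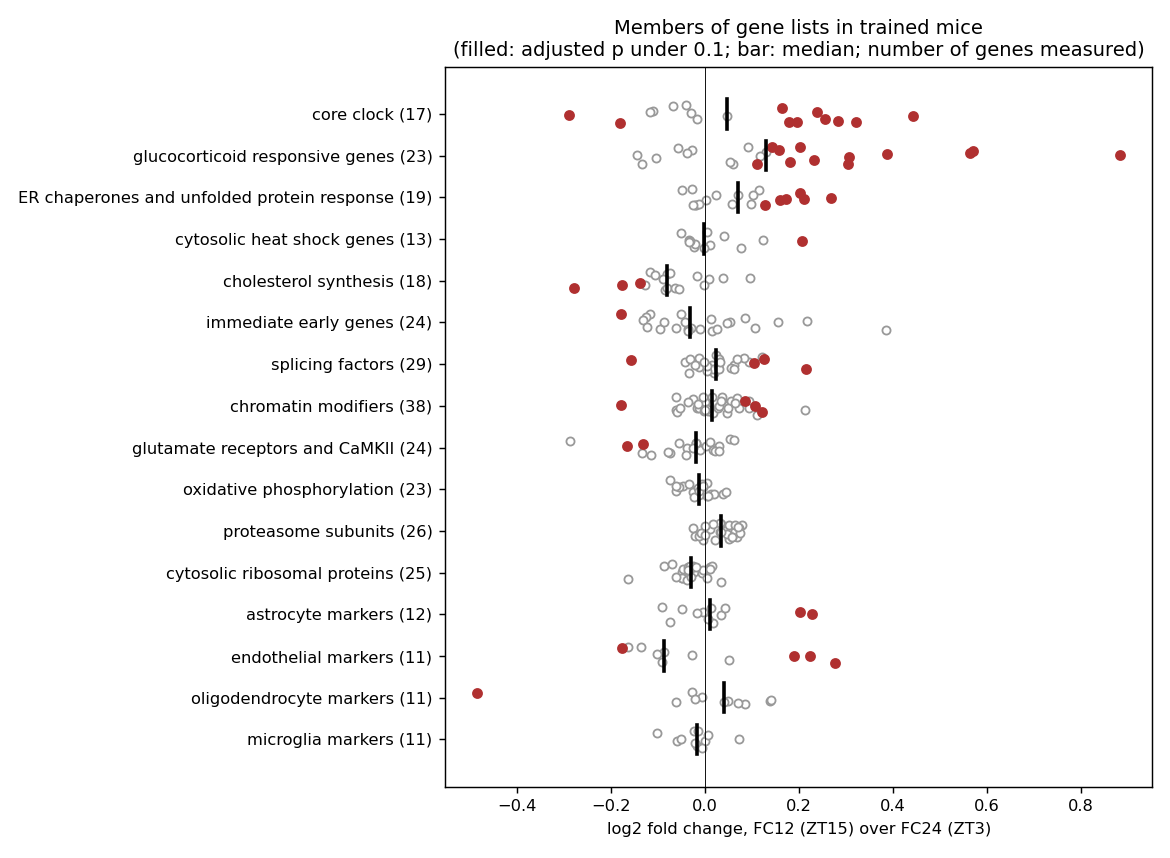
Log2 fold change of FC12 over FC24 for the measured members of 16 gene lists, 1 circle for each gene, filled where the adjusted p was under 0.1, with the list median as a black bar and the number of genes measured in brackets. Filled circles of the glucocorticoid and endoplasmic reticulum lists lie on the right, those of cholesterol synthesis on the left, and 0 circles are filled for oxidative phosphorylation, proteasome, ribosomal and microglia lists.

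Markers of cell types were measured in the same mice, since bulk tissue cannot tell fewer cells of a type from less RNA in each cell. The labelled tissue carried its markers, with Prox1 of dentate granule cells at 9.22 to 9.81 over both groups and mean list levels of 8.591 to 8.699 for CA1 and CA3 pyramidal cells. Of 13 lists, 5 held no call: 0 of 8 oligodendrocyte precursor, 0 of 11 microglia, 0 of 11 interneuron, 0 of 10 choroid plexus and 0 of 10 meningeal markers passed. The other 8 lists held 1 to 4 calls each, beside 4.63% called over all genes. Choroid plexus markers varied between mice of one group more than between groups, with a mean list level of 4.941 to 6.340 in FC12 and 5.315 to 6.745 in FC24. Ttr, their most abundant gene, had an SD of 1.62 in FC12 and 1.68 in FC24 and a difference of -0.29 (adjusted p = 0.925). In untrained mice Ttr had 1.43 (adjusted p = 0.378), and 0 of the 10 passed there too. The meningeal list ran from 6.258 to 6.983 in FC12 and from 6.282 to 7.104 in FC24. For blood, Alas2 alone was measured, with -0.02 (adjusted p = 0.945). The part of dissection in the calls was not tested.

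Calls among glial and vascular markers made up 9.09% of the oligodendrocyte, 16.7% of the astrocyte, 36.4% of the endothelial and 12.5% of the pericyte list. Of 11 oligodendrocyte markers Opalin was called and the other 10 were not, Mog with 0.07 and Mag with -0.02 among them. The oligodendrocyte list ran from 8.708 to 8.973 in FC12 mice and from 8.672 to 8.991 in FC24 mice. Of 12 astrocyte markers, Fgfr3, a growth factor receptor, rose by 0.23 without overlap (8.59 to 8.79 against 8.37 to 8.58, adjusted p = 0.00109) and Gjb6 (connexin 30) by 0.20 (adjusted p = 0.0542). Gfap and Slc1a2 of the same list had 0.03 and -0.02 and did not pass. Among 11 endothelial markers, the transporter genes rose, namely Slco1a4 by 0.28 (no overlap, adjusted p = 0.00958), Slc2a1 as given above and Abcb1a, the drug efflux pump, by 0.19 (adjusted p = 0.0931, ended without any of 15 mice). Cldn5, of tight junctions, fell by 0.18 (adjusted p = 0.0519; 0.103 without FC12 replicate 9), and the list as a whole had a median of -0.09. The pericyte gene Vtn (vitronectin) fell by 0.26 (adjusted p = 0.0471).

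Markers of neurons and their precursors moved in both directions. In the dentate granule list of 9, Dsp rose by 0.47 (7.56 to 8.09 against 7.11 to 7.45, adjusted p = 3.63e-04) and Prox1 by 0.20 (adjusted p = 0.0537, up to 0.104 without FC12 replicate 4 or FC24 replicate 5). Of 11 pyramidal cell markers Elavl4 fell by 0.14 (adjusted p = 0.0797, ended without any of 8 mice). Of 11 progenitor markers, Dcx, a protein of young neurons, fell by 0.18 (adjusted p = 0.0252) beside Fabp7, and Sox11 rose by 0.17 (adjusted p = 0.0641, ended without any of 9 mice). Mki67 and Top2a, of dividing cells, had 0.08 and 0.07 and did not pass. Rorb was the 1 called of 10 markers of neighbouring cortex and thalamus.

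Of 369 genes of small RNAs on the array, 303 of them microRNAs and 59 small nucleolar RNAs, 1 was higher and 4 were lower (1.36% called against 4.63% of all genes). Snord14e, a small nucleolar RNA of the kind that guides methylation of ribosomal RNA, lay at 7.62 to 8.68 in FC12 (median 8.34) and 7.35 to 7.995 in FC24 (median 7.52). The groups overlapped, FC12 mice varied more than FC24 mice, and the rise was 0.67 (SE 0.15, adjusted p = 0.0224). Its gene (chr9:40804748-40804838, GRCm38.p6) lies within that of the chaperone Hspa8, which had a difference of -0.03 (adjusted p = 0.654). Mir128-2 lay at 5.61 to 6.34 in FC12 (median 5.84) and 6.08 to 6.30 in FC24 (median 6.18). All but 1 FC12 mouse were below the FC24 mean, and it fell by 0.31 (SE 0.07, adjusted p = 0.0296). Arpp21, the gene around it and looked up after its values were seen, had -0.12 (adjusted p = 0.0949) and so fell too. Mir30a fell by 0.25, Mir100 by 0.20 and Mir107 by 0.15, with adjusted p of 0.0852, 0.0922 and 0.0704. Each of these 3 calls ended without single mice, 14, 12 and 11 of the 18. The probes read the hairpin region of a gene and do not separate precursor from mature microRNA.

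The mature sequences of the 2 microRNA genes that were lower in both trained and untrained mice are shown (RefSeq, GRCm38.p6), with the seed, bases 2 to 8 that pair with targets, in capitals. Their 4 seeds differ from each other. Mir128-2 lies on the minus strand of chromosome 9 and Mir107 on the minus strand of chromosome 19, inside Pank1.
miR-128-3p: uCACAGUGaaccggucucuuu
miR-128-2-5p: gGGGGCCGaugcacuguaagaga
miR-107-3p: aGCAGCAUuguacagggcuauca
miR-107-5p: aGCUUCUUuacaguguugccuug

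The same question was put to untrained mice, which share no array with the trained ones, although PC1 was found over all arrays together. CC12 and CC30 differed for 504 of 18820 genes higher (2.68%) and 350 lower (1.86%) in the dark. Of these, 265 higher and 116 lower genes were called in the same direction in trained mice, 381 in all and 0 in opposite directions. That is 43.7% of the genes called in trained mice and 44.6% of those called in untrained mice. Of the 872 genes called in trained mice, 853 had the same sign in untrained mice (97.8%). Counted as probe sets, 95.95% of the 1136 called in trained mice had the same sign, and 63.2% of all probe sets did. Log2 fold changes correlated across all 35556 probe sets with a Pearson r of 0.384, and across the 1136 called in trained mice with an r of 0.850. The 1136 were picked for their difference in trained mice, which by itself raises r. Nor are probe sets independent of each other. The changes were somewhat smaller in the second set for genes chosen in the first, with a median of 0.16 in trained and 0.11 in untrained mice for the higher genes and of -0.16 and -0.13 for the lower.

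Gene by gene, Fmo2 had a log2 fold change of 1.18 in untrained mice beside 0.96 in trained mice, and Plin4 one of 0.65 beside 0.88. Mfsd2a had 0.51 beside 0.57, and Fabp7 fell by 0.66 beside 0.79. Among clock genes, Per3 had 0.29 beside 0.28, Cry1 0.24 beside 0.24, Arntl fell by 0.29 in both, and Per2 had 0.38 beside 0.26. In untrained mice 7 of 17 core clock genes were higher and 1 lower, and 10 of 23 glucocorticoid responsive genes were higher and 1 lower. Of 19 chaperones of the endoplasmic reticulum 5 were higher. Over all genes 2.68% were higher and 1.86% lower. Not every list matched: of 9 dentate granule markers 0 were higher and 2 lower in untrained mice, beside 2 higher and 0 lower in trained mice. Arc was called in untrained mice with 0.47 (adjusted p = 0.00253) and Bdnf with a fall of 0.20 (adjusted p = 0.00197), both with the same sign as in trained mice.

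**Figure D4:**
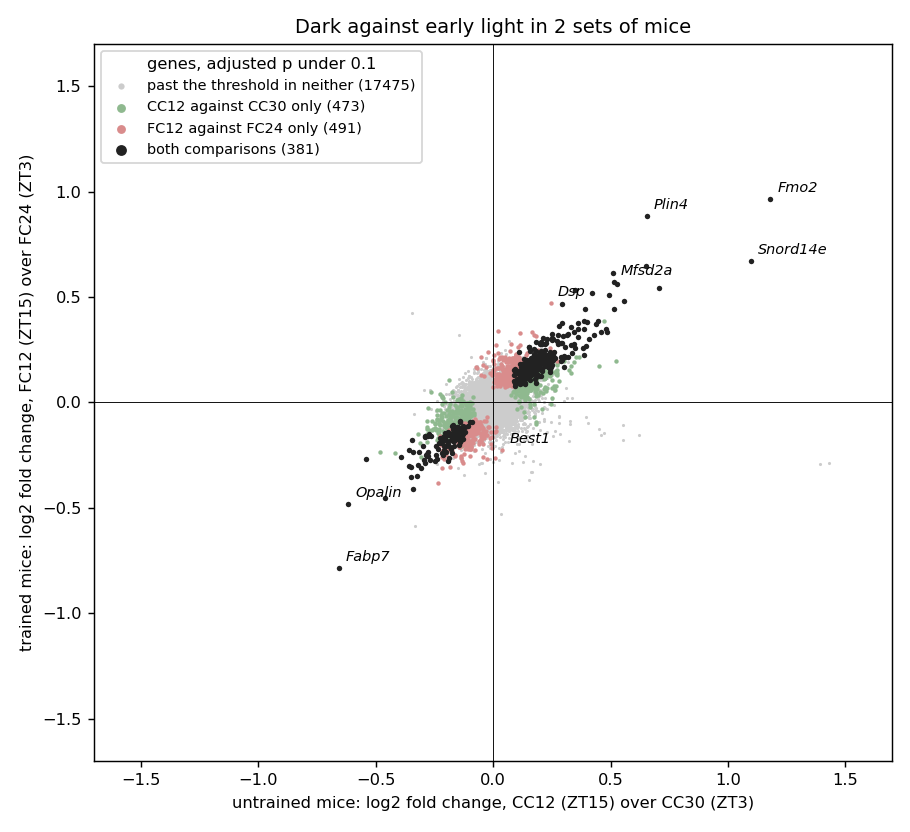
Log2 fold change between dark and early light for 18820 genes, untrained mice on the horizontal axis (CC12 over CC30) and trained mice on the vertical axis (FC12 over FC24), 9 mice in each group. Black points (381) passed an adjusted p under 0.1 in both comparisons and have the same sign on both axes, and 0 have opposite signs.

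The difference between the 2 sets of mice was tested as an interaction over the 36 arrays. limma called 0 probe sets, with a smallest adjusted p of 0.9999, and 0 in each of 9 alternative settings. In limma 1401 of 35556 probe sets had an unadjusted p under 0.05, fewer than chance alone would give. The standard error of this term was 0.0715 at the median, larger than for either comparison alone, so a lack of calls does not show that the mice were alike. The genes with the smallest unadjusted p were Best1, an anion channel, Nipal3, 4930578G10Rik, Cacng6, of the calcium channel gamma family, and Ryr1, a calcium release channel. Best1 had -0.23 in trained mice and 0.04 in untrained mice, with an unadjusted p of 1.50e-04 from limma for the interaction. Nipal3 had -0.14 and 0.01 (3.12e-04), and 4930578G10Rik had 0.34 and 0.02 (3.99e-04). Cacng6 had 0.05 in trained and -0.18 in untrained mice (5.16e-04), and Ryr1 0.07 and -0.11 (5.48e-04). Prox1, at 0.20 and 0.00, had an unadjusted interaction p of 0.00956, and Dsp, at 0.47 and 0.25, one of 0.0541.

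Levels in all 8 groups showed more than one pattern, and not each of them followed the time of day. These are descriptions, with the further groups at 30 min (FC30) and 4 h (FC4, CC4) after training or handling and 30 min after a memory test (RT30). Fabp7 had a mean of 10.49 in FC12 and 10.56 in CC12 and lay between 11.18 and 11.27 in the other 6 groups. Arntl had 7.29 in FC12 and 7.28 in CC12 against 7.52 to 7.59 elsewhere. For Mfsd2a the dark groups had 9.41 and 9.36. Of the light groups FC4 stood at 9.04, and the others, CC4 (8.81) among them, at 8.81 to 8.86. Rbm3 was at 10.63 in CC4 and 10.57 in FC4, near its dark levels of 10.64 and 10.67, and at 10.28 to 10.40 in the groups of the early light. Snord14e had 8.15 in FC30 and 8.46 in RT30, close to the dark groups (8.26 and 8.42), and 7.32 to 7.59 in the other 4. FC30 and RT30 were taken in the early light, like CC30 (7.32) and FC24 (7.59). Per1 had 8.67 in FC30 and 8.66 in RT30, above FC12 (8.57). Tm6sf2 had 6.91 in FC30 and 7.01 in RT30 (FC24 6.55), and Tnfrsf25 8.04 and 8.06 (FC24 7.65). Dnase1l2 had 6.25 in FC30 and 6.32 in RT30 (FC24 6.02). Fmo2 stayed near FC24 (3.82), at 3.89 in FC30 and 3.87 in RT30.

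**Figure D5:**
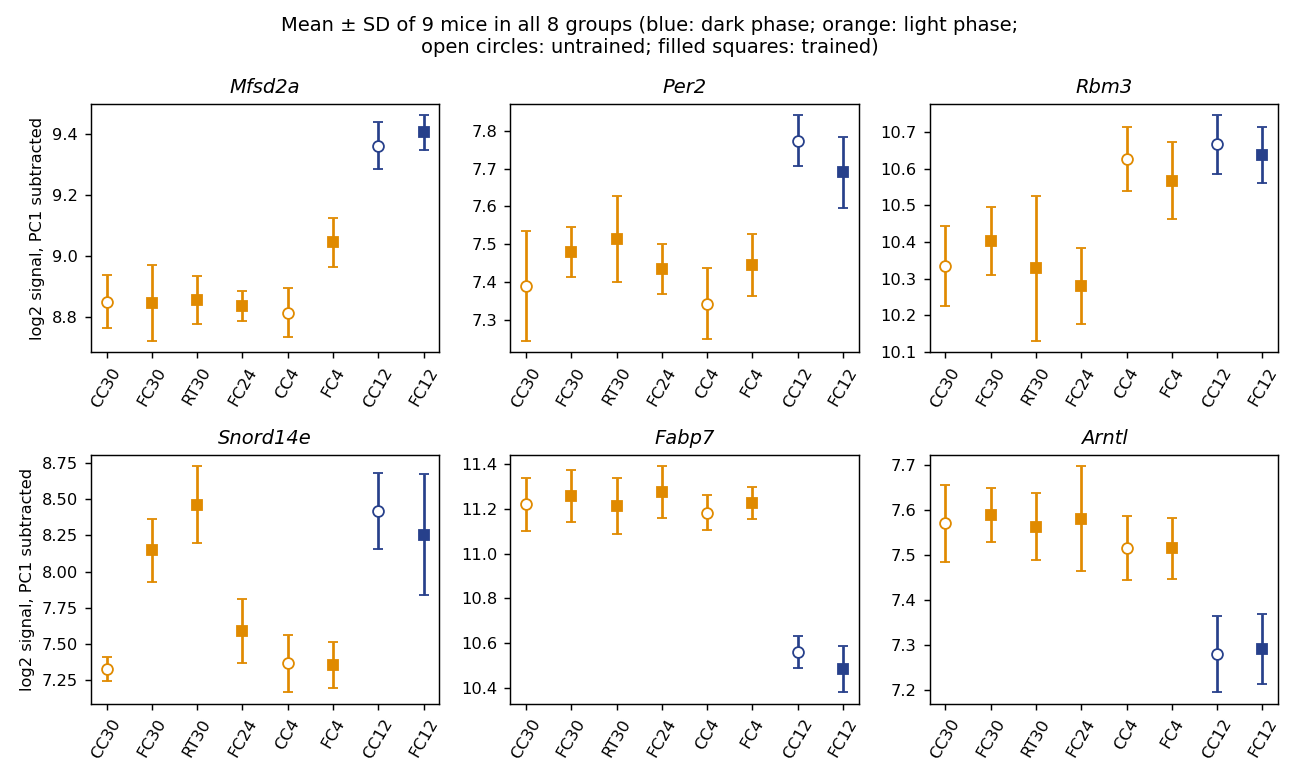
Mean ± SD of the log2 signal after subtraction of PC1 in 9 mice for each of 8 groups, ordered by time of day. Blue marks the dark phase and orange the light phase, open circles untrained and filled squares trained mice. Fabp7 and Arntl are low in both dark groups alone, Rbm3 is also high at 4 h, and Snord14e is also high in FC30 and RT30.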

How the data were processed

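Hippocampal RNA of single mice, both hippocampi in 1 sample, was hybridised to whole-transcript arrays. The authors averaged 2 scans of each array and summarised the probes with RMA in Affymetrix Power Tools, and the deposited values are log2 signals, background corrected and quantile normalized between arrays, for 35556 probe sets without missing values. Quantile normalization sets the array distributions equal, so differences are relative to the bulk of the probe sets. Array medians lay between 5.82 and 5.88. The files name no batches of dissection or extraction.

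PC1, which held 17.4% of the variance and of which 5.24% lay between groups, was subtracted. The study's methods also remove a first component, found after standardizing against the mean in a way not described further. The paper gives that component a larger share of the variance than the 17.4% here, so its normalization was not reproduced. limma 3.58.1 in R 4.3.3 was then fitted to the 18 arrays of each comparison and to 36 for the interaction, two-sided. The methods applied local false discovery rates to pair-wise statistics. These rates were run as an alternative, on an equal variance statistic chosen here because the variance model is not stated. They came from functions written here and not from the package that the paper names. Functions were tested on simulated data.

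Of the probe sets, 21218 carry 1 gene symbol, 1881 several and 12457 none. A gene was read by the probe set with the highest mean among those with its symbol alone. The 33 gene lists held 529 symbols, of which 52 were not measured in this way. Genes were named by rule: the 15 largest rises and falls, all core clock and PAR bZIP genes, up to 4 called members of each other list (the smallest p where 0 were called), up to 5 small RNAs in each direction and the 5 smallest interaction p. The comparison, the lists and the rule were chosen with earlier results of these data known. Python 3.11.15 with pandas 2.3.3, numpy 2.4.6 and matplotlib 3.10.9 served for lists, sequences and figures. Promoter windows and mature microRNAs came from RefSeq tables of GRCm38.p6. Alternatives were other treatments of PC1, all groups in one fit, other variance models, filters on dim or unnamed probe sets, the replicate number as a block and each mouse left out.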

Additional observations from a re-analysis of the deposited data

Results flagged for a closer look

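In 206 groups of 9 mice, 2 for each of 103 named genes, 10 had a mouse whose gap to the nearest of the others was over 0.493 of the group's range, in 9 genes. Chance gives about 1 in 20 such groups. In FC24, Cdh19 was lowest at 5.626 and Cstad highest at 7.376 in replicate 4, and Per2 was lowest there at 7.275. This mouse had the lowest PC1 score of FC24. Per2 was lowest in FC12 at 7.477 in replicate 2, the mouse that stood apart on PC1. Fabp7 was lowest in FC24 at 11.0 in replicate 6, still above every FC12 mouse. In FC24 replicate 3, Gabra2 was highest at 9.806 and Slco1a4 lowest at 7.991. The others were Alas2, highest at 5.98 in FC24 replicate 2, Gjb6, lowest at 7.591 in FC24 replicate 9, and Cx3cr1, highest at 8.171 in FC24 replicate 8.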

How the results depend on the processing

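FC12 against FC24 gave 857 (without FC12 replicate 9) to 1217 (without FC12 replicate 2) called probe sets when 1 mouse was left out, and 957 to 1451 with the other treatments of PC1, variance models and filters run. With PC1 of values divided by their SD removed, added after seeing the data, 1362 were called, 1052 of them among the 1136. That component held 10.8% of the variance. Local false discovery rates of the equal variance test called 240 (226 higher, 14 lower), and 105 for CC12 against CC30. The paper states that the 9 mice of each group came from 9 independent experiments, run over 2 weeks. The labels do not say whether the replicate numbers follow these experiments. Same-numbered mice of FC12 and FC24 deviated together with a correlation of -0.094 to 0.179. Between FC12 and CC12 it reached 0.232, in replicate 6. These values do not decide whether the numbers pair the mice. With the replicate number as a block, 723 probe sets were called, 646 of them among the 1136, and 705 for CC12 against CC30, where 822 were called without CC12 replicate 2 and CC30 replicate 3. The cause of these moves was not tested. The interaction gave 0 calls throughout. Calls shared between trained and untrained mice were 465 probe sets, with 0 opposite. There were 339 without the lowest mouse on PC1 of each of the 4 groups, and 415 with no component removed. With 2 components removed there were 431, and without the dimmest probe sets 591. These 4 alternatives, each with 0 opposite, were added after seeing the data. Of 82 named genes called, 34 passed in all 31 alternative settings, 65 with the replicate block and 34 by local false discovery rates, 19 lost the call when some single mouse was left out, and 0 changed sign. Alas2, at -0.02 and not called, had -0.037 to 0.024 with 1 mouse left out, above 0 without FC12 replicate 4 (0.0077), FC12 replicate 5 (0.0040) and FC24 replicate 2 (0.024). Detection above background was not part of the values used, so dim probe sets could be set aside by their mean level alone.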
